A study of Mus musculus with 16 samples.

Results

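The circadian clock genes described here, 10 in number, were followed through the islet and embryo libraries of a study that injected sperm RNA into mouse zygotes. They were taken by symbol: Arntl, Clock, Cry1, Per1, Per2, Per3, Nr1d1, Nr1d2, Dbp and Tef. All 10 were found once among the 24486 entries of the islet tables and once among the 23966 genes used from the embryo tables. Male C57BL/6J mice aged 5 weeks were fed either high-fat chow (HFD) or normal chow (ND), and their sperm RNA of 30 to 40 nt was injected at 2 ng per µl into fertilised eggs of the ICR strain. The egg donors of the embryo libraries were 6 weeks old. Islets came from F1 offspring of such eggs after a fast of 6 h, with 3 libraries from HFD sperm RNA and 3 from ND sperm RNA. Embryos were pools of 5, with 1 library per sperm RNA at the 8-cell stage, about 56 h after injection, and 1 at the late blastocyst stage, about 75 h. HFD and ND below therefore name the diet of the sperm donor, and every group received sperm RNA. Neither water-injected embryos nor methylation libraries were analysed here. The offspring's own age, sex and diet, the number of animals behind each islet library and the hour of collection are not given in the sources used here. The p-values below measure the spread between these libraries, which may be partly technical.

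The clock is a loop of transcription factors that runs in nearly every cell. ARNTL (also called BMAL1) and CLOCK bind DNA as a pair at E-boxes and switch on the Period and Cryptochrome genes, the Rev-erb genes Nr1d1 and Nr1d2, and output genes such as Dbp and Tef. PER and CRY proteins then inhibit the pair, REV-ERB proteins repress Arntl through RORE elements, and DBP and TEF act on D-boxes. Over the day the Rev-erb, Dbp and Per transcripts are high when Arntl is low, and Cry1 peaks late. In islets the clock of beta cells takes part in the timing of insulin secretion.

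Promoter sequence is shown for 5 of the genes because their windows hold matches to the letters of elements on which clock factors act. RefSeq promoter windows of build GRCm38.p6, each 300 bases long with 250 before and 50 after a transcription start, matched 9 of the 10 genes in 14 windows, and Per2 had no entry. The windows were searched on both strands for the E-box CACGTG, the D-box TTATGTAA or TTACGTAA, and the RORE. No matches of different motifs overlapped. The E-box was in 4 of the 14 windows, belonging to Cry1, Per1 and Tef, against 7.15% of all 32851 windows of that length. The D-box was in the window of Per3, and in 1.06% of all windows. A RORE was in 1 window of Arntl, and in 0.384% of all windows. A match is a description of letters and not of binding, and the 8 windows without a match, among them those of Dbp, Nr1d1 and Nr1d2, say only that these letters are not there. Each gene's 250 bases before the start are printed 5′ to 3′ on its own strand, with the motif in capitals, and for Arntl 30 bases around its RORE, which begins 27 bases into the transcript.
Per1, chr11:69098699-69098948, plus strand, E-box in capitals: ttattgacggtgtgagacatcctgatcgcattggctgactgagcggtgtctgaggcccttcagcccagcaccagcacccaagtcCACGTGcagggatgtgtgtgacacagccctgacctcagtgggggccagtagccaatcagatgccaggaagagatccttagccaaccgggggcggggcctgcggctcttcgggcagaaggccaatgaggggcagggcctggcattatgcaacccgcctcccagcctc
Cry1, chr10:85185055-85185304, minus strand, E-box in capitals: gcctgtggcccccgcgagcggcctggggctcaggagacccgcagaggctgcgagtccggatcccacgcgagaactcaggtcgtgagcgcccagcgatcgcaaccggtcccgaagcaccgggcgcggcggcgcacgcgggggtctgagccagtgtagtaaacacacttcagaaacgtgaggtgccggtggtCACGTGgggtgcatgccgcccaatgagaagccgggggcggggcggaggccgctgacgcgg
Tef, chr15:81802423-81802672, plus strand, E-box in capitals: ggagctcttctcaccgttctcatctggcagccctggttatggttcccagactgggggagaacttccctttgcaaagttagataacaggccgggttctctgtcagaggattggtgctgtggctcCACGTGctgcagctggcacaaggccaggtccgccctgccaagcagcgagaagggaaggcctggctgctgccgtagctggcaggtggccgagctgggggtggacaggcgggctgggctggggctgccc
Per3, chr4:151044666-151044915, minus strand, D-boxes in capitals: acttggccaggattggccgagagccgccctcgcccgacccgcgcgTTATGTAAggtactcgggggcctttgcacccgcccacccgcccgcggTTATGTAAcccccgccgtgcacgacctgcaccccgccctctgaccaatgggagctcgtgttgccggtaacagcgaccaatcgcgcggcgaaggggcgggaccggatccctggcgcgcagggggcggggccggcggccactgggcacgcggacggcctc
Arntl, chr7:113207527-113207556, plus strand, RORE in capitals: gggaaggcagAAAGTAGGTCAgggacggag

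In islets the 7 Period, Rev-erb and PAR bZIP genes had higher mean FPKM (fragments per length of transcript and per depth of library) in the HFD group, and Arntl, Clock and Cry1 had lower means. Dbp and Nr1d1 had the widest ratios of group means, 3.78 and 2.93. None of the 10 passed limma's test at an adjusted p of 0.05, where 0.0426% of the 11737 genes tested were called higher in HFD and 0.00852% lower, and 0.017% and 0.0% after median ratio scaling. At an unadjusted p of 0.05, limma passed 6 of the 10 genes, all of them higher in HFD, against 29.6% of all genes higher and 0.843% lower. The background is high because 93.8% of all genes tested were higher in HFD as deposited, with a median log2 difference of 0.30. After this scaling, which brings the libraries to a common median level and moved that median to 0.01, 6 of the 10 genes again passed the unadjusted p, 4 of them higher and 2 lower, against 5.15% and 4.75% of all genes. Values below are as deposited unless scaling is named.

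The transcription factors at the head of the loop were the only members besides Cry1 with lower means in HFD. Arntl was at 4.59, 1.79 and 4.04 FPKM in ND replicates 1 to 3 and at 2.71, 2.16 and 2.79 in HFD replicates 1 to 3. ND replicate 2 held the lowest value of all 6 libraries, so the groups overlapped, and replicates 1 and 3 of ND held the highest. The log2 difference of FPKM + 1, HFD minus ND, was -0.27 ± 0.23 (SE, n = 3 per group; limma, adjusted p = 0.365), and -0.55 after scaling (limma, adjusted p = 0.557). Clock, the partner of ARNTL, was at 7.60, 7.92 and 6.95 FPKM in ND and at 7.25, 7.14 and 7.91 in HFD. Its libraries interleaved and spanned the narrowest range of any member, with a log2 difference of -0.01 ± 0.15 (SE; limma, adjusted p = 0.961). After scaling, Clock was lower in every HFD library than in any ND library, with a log2 difference of -0.32 (limma, adjusted p = 0.492).

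Among the inhibitors of that pair, Cry1 and the Period genes stood on opposite sides. Cry1, a repressor of ARNTL and CLOCK, was at 1.91, 2.59 and 1.99 FPKM in ND and at 1.68, 1.72 and 1.34 in HFD. Every HFD library was below every ND library, a pattern that 0.784% of all genes tested showed as deposited and 8.98% after scaling. Cry1 had a log2 difference of -0.29 ± 0.16 (SE; limma, adjusted p = 0.206), and -0.52 after scaling (limma, adjusted p = 0.337). Per1, the Period gene that also answers quickly to hormones and cAMP, was at 3.08, 5.92 and 5.24 FPKM in ND and at 8.63, 7.53 and 8.15 in HFD. Its HFD libraries were all above its ND libraries, as were those of 41.5% of all genes as deposited and 7.95% after scaling. For Per1 the log2 difference was 0.70 ± 0.20 (SE; limma, adjusted p = 0.115), and 0.40 after scaling (limma, adjusted p = 0.426). Per2 was at 2.59, 6.11 and 2.66 FPKM in ND and at 4.68, 6.01 and 5.48 in HFD. Here ND replicate 2 was the highest of all 6 libraries while ND replicates 1 and 3 were the lowest. Per3 was at 0.923, 3.74 and 1.33 FPKM in ND and at 2.59, 4.83 and 2.83 in HFD, with ND replicate 2 below HFD replicate 2 alone. The log2 differences were 0.49 ± 0.24 for Per2 and 0.64 ± 0.29 for Per3 (SE; limma, adjusted p = 0.175 and 0.163). After scaling they were 0.21 and 0.41 (limma, adjusted p = 0.754 and 0.657), and without ND replicate 2, as deposited, 0.81 and 1.03 (limma, adjusted p = 0.0708 for both).

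The Rev-erb genes encode the nuclear receptors that repress Arntl, and both were higher in every HFD library than in any ND library. Nr1d1 was at 5.31, 13.9 and 9.20 FPKM in ND and at 29.1, 34.7 and 19.6 in HFD. Even the highest ND library, replicate 2, stayed below the lowest HFD library, replicate 3. The log2 difference of Nr1d1 was 1.51 ± 0.28 (SE; limma, unadjusted p = 0.000144, adjusted p = 0.0748), the lowest adjusted p of the 10 genes, and 1.18 after scaling (limma, adjusted p = 0.331). Nr1d2 was at 8.46, 16.9 and 8.71 FPKM in ND and at 18.0, 24.7 and 18.8 in HFD. ND replicate 2 lay close under HFD replicate 1 and far from the other ND libraries. For Nr1d2 the difference was 0.85 ± 0.24 (SE; limma, adjusted p = 0.115), and after scaling, at 0.52 (limma, adjusted p = 0.495), its groups overlapped.

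Dbp and Tef encode PAR bZIP factors, the output arm that acts on D-boxes. Dbp was at 1.52, 9.17 and 2.29 FPKM in ND and at 13.3, 27.7 and 8.16 in HFD. ND replicate 2 was above HFD replicate 3, so the groups overlapped, although ND replicates 1 and 3 were far below all others. The log2 difference of Dbp was 1.83 ± 0.46 (SE; limma, unadjusted p = 0.00169, adjusted p = 0.114), and 1.55 after scaling (limma, adjusted p = 0.455). Tef was at 5.03, 14.7 and 6.20 FPKM in ND and at 12.6, 20.3 and 13.3 in HFD. As with Dbp, ND replicate 2 fell among the HFD libraries. Its log2 difference was 0.87 ± 0.30 (SE; limma, adjusted p = 0.126), and 0.55 after scaling (limma, adjusted p = 0.560). The listed span of Dbp overlaps that of Sphk2, and whether the authors' counting used strand is not given in the sources used here. Sphk2 was at 4.71, 9.84 and 9.18 FPKM in ND and at 12.5, 12.2 and 10.3 in HFD, and its ND replicate 3 lay next to replicate 2, unlike that of Dbp.

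**Figure D1:**
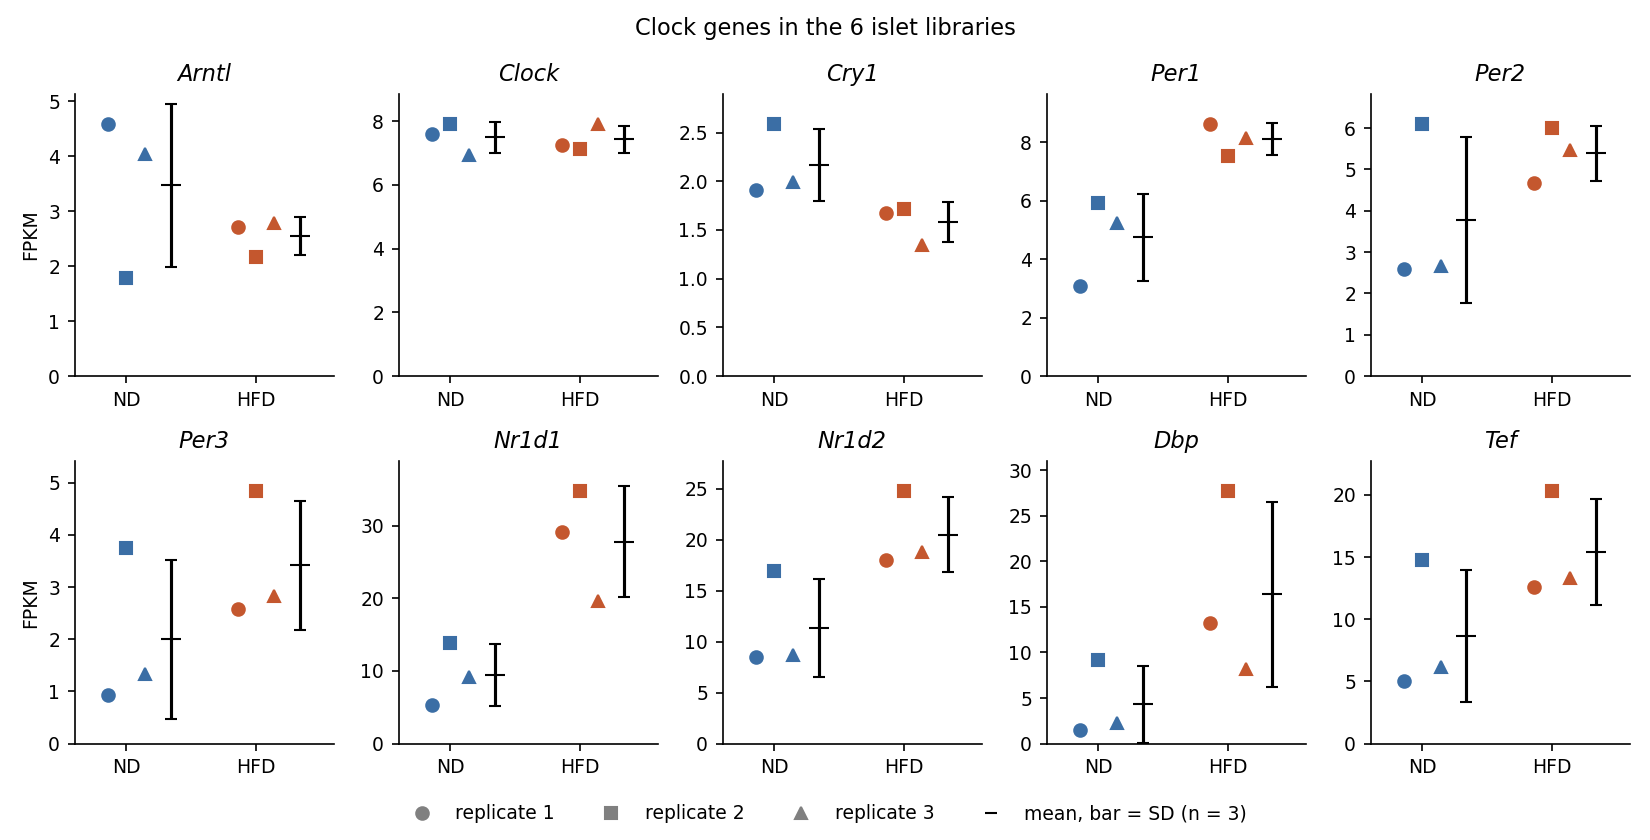
FPKM (vertical axis, from 0) of each clock gene in the 3 ND and 3 HFD islet libraries, with the symbol shape giving the replicate number and the black bar the mean ± SD (n = 3). The square of ND replicate 2 stands apart from ND replicates 1 and 3 in Arntl, Per2, Per3, Nr1d2, Dbp and Tef.

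**Figure D2:**
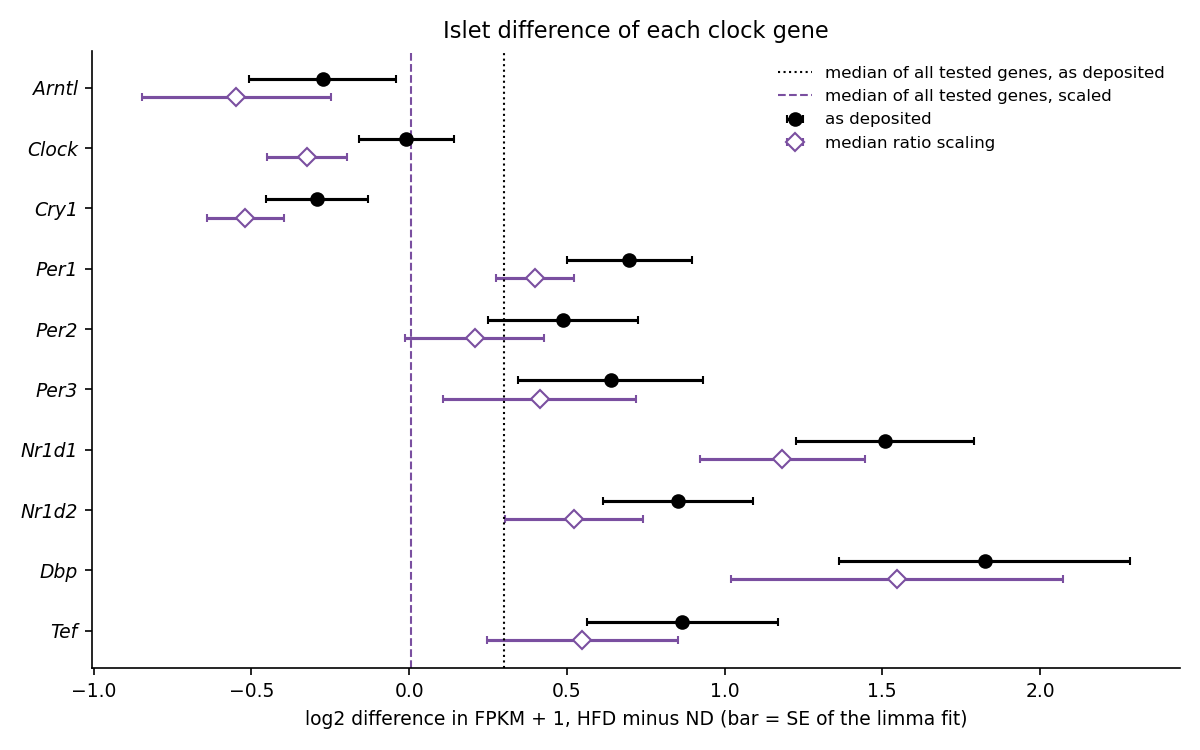
Log2 difference of FPKM + 1, HFD minus ND, with its SE from limma, for each gene as deposited (filled circles) and after median ratio scaling (open diamonds); the dotted and dashed lines are the medians of all tested genes, 0.30 and 0.01. Arntl, Clock and Cry1 lie left of both lines under both scalings, and Dbp and Nr1d1 lie farthest to the right.

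By level, which FPKM allows between genes because it is per length, Nr1d1 led in islets with a mean of 18.6 FPKM over the 6 libraries (5.31 to 34.7). Nr1d2 followed at 15.9 (8.46 to 24.7), Tef at 12.0 (5.03 to 20.3) and Dbp at 10.3 (1.52 to 27.7). The ranges of these 4 genes overlap, and the order differs between the groups. By ND means Nr1d2 led at 11.3 ± 4.80 FPKM, before Nr1d1 at 9.47 ± 4.30, Tef at 8.66 ± 5.30 and Clock at 7.49 ± 0.494, and Dbp, at 4.32 ± 4.21, came after Per1, at 4.74 ± 1.48 (SD, n = 3). Over all 6 libraries Clock at 7.46 (6.95 to 7.92) and Per1 at 6.42 (3.08 to 8.63) were next. Per2 at 4.59, Arntl at 3.01, Per3 at 2.71 and Cry1 at 1.87 came last, and neighbours in this part of the order overlap too.

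Most members varied widely within a group, and by the ratio of the highest to the lowest library, as deposited, every member varied more in ND than in HFD. The share of all tested genes that did so was not computed. The factors that scaling divides by spanned 0.740 to 1.00 in ND and 1.08 to 1.18 in HFD, a wider range in ND for every gene. After scaling Cry1 varied less in ND, at 1.22 against 1.35 in HFD, and the other members still more. The ratio of the highest to the lowest ND library was 6.03 for Dbp, 4.05 for Per3, 2.93 for Tef, 2.62 for Nr1d1 and 2.56 for Arntl. Its median over all tested genes was 1.47. In 6 of the 10 genes this ratio was at least 2, which held for 12.4% of all tested genes. After scaling the count was 5 of 10, against 6.39% of all tested genes. In 8 of the 10 genes, as deposited and after scaling, the ND libraries differed from each other by a larger ratio than the group means did. Nr1d1 and Cry1 were the exceptions, and the share of all tested genes was not computed here either. The residual SD of log2(FPKM + 1) around the group means was above that of 99.6% of all tested genes for Dbp, 98.2% for Tef, 98.1% for Per3 and 97.6% for Nr1d1. For Clock it was above that of 2.43% as deposited and 57.7% after scaling. For Cry1 it was above that of 21.1% and 32.9%.

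**Figure D3:**
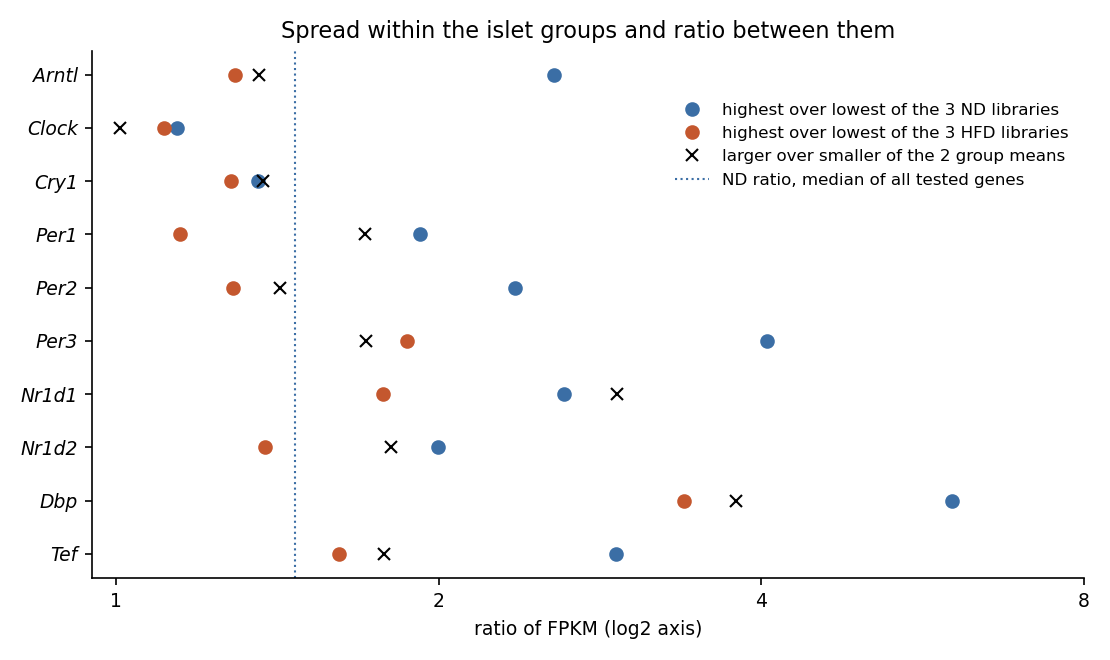
Ratio of FPKM on a log2 axis for each clock gene: highest over lowest library within ND (blue), within HFD (orange), and larger over smaller group mean (cross); the dotted line is the median within-ND ratio of all tested genes, 1.47. The blue point lies right of the cross for 8 of the 10 genes.

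ND replicate 2 had the highest ND value of 9 of the 10 genes and the lowest of Arntl. As deposited it was the highest ND library for 61.8% of all tested genes, so this count alone says little. After scaling it was the highest ND library for 7 of the 10 genes and for 28.9% of all tested genes. Over all genes, the correlations of its log2 values were 0.976 and 0.975 with ND replicates 1 and 3. With HFD replicates 1 to 3 they were 0.973, 0.981 and 0.982, so HFD replicates 2 and 3 were nearer to it than its own group. Without ND replicate 2, the log2 difference was 2.43 for Dbp, 1.81 for Nr1d1, 1.29 for Tef and -0.58 for Arntl (limma, adjusted p = 0.0607 for the first 3 and 0.0721 for Arntl). Without ND replicate 3, Nr1d1 and Dbp passed the threshold (limma, adjusted p = 0.00317 and 0.0259), in a fit that called 347 genes in all. Without HFD replicate 3 they passed as well (limma, adjusted p = 0.0142 and 0.0354), among 36 genes called. Without ND replicate 1, the adjusted p of Nr1d1 was 0.223 and that of Dbp 0.250 (limma). After scaling, leaving out any library took none of the 10 genes past the threshold.

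The arms of the loop were set against each other in each library as the mean log2(FPKM + 1) of Per1, Per2, Per3, Nr1d1, Nr1d2, Dbp and Tef minus the mean of Arntl, Clock and Cry1. This difference was -0.28, 1.16 and 0.12 in ND replicates 1 to 3 and 1.36, 1.89 and 1.26 in HFD replicates 1 to 3. The means were 0.33 ± 0.75 in ND and 1.50 ± 0.34 in HFD (SD, n = 3 each), a difference of 1.17. ND replicate 2 came close to the lowest HFD library, and the other ND libraries lay far below it. Because a common factor nearly cancels in this difference, scaling left it at 1.15. Leaving out any 1 islet library gave 0.87 to 1.59. The arms were chosen with the values known, so the difference is a description with no test.

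**Figure D4:**
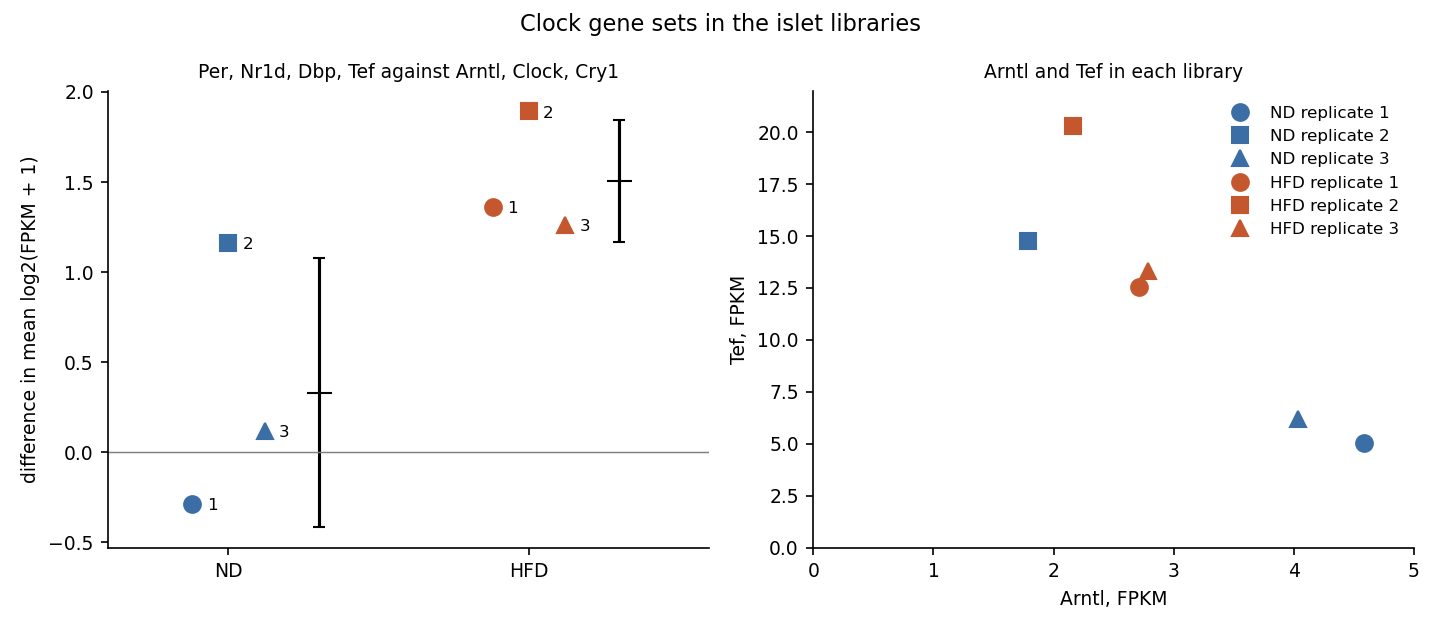
Left, the mean log2(FPKM + 1) of the 7 Per, Nr1d, Dbp and Tef genes minus that of Arntl, Clock and Cry1 in each islet library, numbered by replicate, with mean ± SD per group (n = 3). Right, FPKM of Tef against FPKM of Arntl in each library: the 3 HFD libraries and ND replicate 2 have Arntl under 3 FPKM and Tef above 12, and ND replicates 1 and 3 have Arntl above 4 and Tef under 7.

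Across the 6 islet libraries, as deposited, Arntl was low where the genes of the other arm were high. ND replicate 1, where Arntl was highest, was the lowest ND library for 78.6% of all tested genes. ND replicate 2, where Arntl was lowest, was the highest ND library for 61.8%. The share of all genes with a negative r with Arntl was not computed. Since the members were chosen with earlier results known, the p-values here are a description. Pearson's r of log2(FPKM + 1) with Arntl was -0.96 for Per2, -0.95 for Per3, -0.93 for Tef, -0.86 for Nr1d2 and -0.84 for Dbp (n = 6 libraries). By exact two-sided permutation over the 9 relations computed, the p-values were 0.0111 for Per2, 0.0167 for Per3, 0.0333 for Tef, 0.0611 for Nr1d2 and 0.0472 for Dbp. After Benjamini-Hochberg adjustment the lowest was 0.075 (exact permutation), for Per2 and Per3, so none passed. Spearman's rho was -0.94 for Per2, -0.89 for Per3 and Tef, -0.83 for Dbp and -0.60 for Nr1d2 (exact permutation p = 0.0167, 0.0333, 0.0333, 0.0583 and 0.242). Nr1d1 and Per1 had r of -0.72 and -0.67 (exact permutation p = 0.125 and 0.181), with rho of -0.66 and -0.49 (exact permutation p = 0.175 and 0.356). Clock and Cry1 had r of -0.31 and -0.20 (exact permutation p = 0.511 and 0.733), with rho of -0.31 and -0.14 (exact permutation p = 0.564 and 0.803).

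The relations were also computed within the groups. On deviations from the group means, r was -0.98 for Per2, -0.96 for Per3, -0.98 for Tef, -0.98 for Nr1d2, -0.91 for Dbp, -0.84 for Nr1d1 and -0.66 for Per1. Cry1, of Arntl's own arm, had -0.88 and Clock -0.37. Without ND replicates 1 and 2, the libraries farthest from the median of Arntl, r was -0.957 to -0.995 for Per2, Per3, Nr1d1, Nr1d2, Dbp and Tef, and that of Cry1 changed sign to 0.50. After scaling, r over all 6 libraries was -0.80 to -0.89 for the 7 genes of the other arm, and it changed sign for Clock, to 0.74, and for Cry1, to 0.45. On deviations from the group means, the scaled values gave r of -0.70 to -0.86 for those 7 genes. They gave -0.23 for Cry1 and 0.59 for Clock, so the within-group r of Clock also changed sign. Scaled values without the 2 farthest libraries, then ND replicates 1 and 3, gave an r of -0.33 for Dbp, -0.38 for Nr1d2, 0.18 for Nr1d1 and 0.86 for Per1. On the scaled values the relations of these 4 genes with Arntl therefore rest on those libraries. The 7 genes of the other arm ran together: over their 21 pairs r was 0.74 to 0.99, with a median of 0.93, as a description over the same 6 libraries.

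The hour at which islets were taken is not among the labels used here. Clock transcripts cycle with the hour in adult tissue. Among the ND libraries, which had the same sperm RNA, the Per, Nr1d, Dbp and Tef genes were highest in replicate 2 and Arntl was lowest there. Among the HFD libraries, Per2, Per3, Nr1d1, Nr1d2, Dbp and Tef were also highest in replicate 2 and Arntl lowest, while Per1 was lowest there. Both held as deposited and after scaling. As deposited Clock and Cry1 were also highest in ND replicate 2, unlike Arntl. After scaling both were highest in ND replicate 1, as Arntl was. Scaled Clock was at 10.3, 7.88 and 7.41 in ND replicates 1 to 3, and scaled Cry1 at 2.585, 2.577 and 2.122. Whether these 2 members of Arntl's arm went with Arntl therefore depends on the scaling. The kind of sperm RNA and the hour of collection cannot be told apart in these libraries.

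A list of 24 other clock genes was made by role, with earlier results of these data known. Of these, 20 were tested in islets and none was called by limma. With 17 higher and 3 lower in HFD and a median log2 difference of 0.30, they sat at the median of all genes, and after scaling 10 were higher and 10 lower with a median of -0.01. The 10 members had a median of 0.67, and 0.41 after scaling. In 9 of the 20 the HFD libraries were all above the ND libraries as deposited, a share near the 41.5% of all genes tested. After scaling this held for 1, Tspan4, against 7.95% of all genes, and 3 had HFD below without overlap, Nampt and Fbxw11 among them, against 8.98%.

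The remaining repressors of the loop include Cry2, the other cryptochrome, at 13.8 ± 2.49 FPKM in ND and 23.6 ± 5.79 in HFD, and Bhlhe40, an E-box repressor, at 4.93 ± 0.0663 and 9.50 ± 3.46 (SD, n = 3 each). Their log2 differences were 0.72 ± 0.21 and 0.77 ± 0.22 (SE; limma, adjusted p = 0.115 for both), and every HFD library was above every ND library. After scaling they were 0.38 and 0.46 (limma, adjusted p = 0.492 and 0.525), and the groups of both overlapped. Nfil3, a repressor that competes with DBP and TEF at D-boxes, was at 5.35 ± 2.59 FPKM in ND and 4.35 ± 2.16 in HFD (SD; log2 difference -0.27, limma, adjusted p = 0.507). Rora, a receptor that acts on ROREs against REV-ERB, was at 4.61 ± 0.568 and 5.54 ± 0.419 FPKM (SD; log2 difference 0.22, limma, adjusted p = 0.286). Npas2, a stand-in for CLOCK, was at 0.95 ± 0.542 and 1.01 ± 0.324 FPKM (SD; log2 difference 0.07). After scaling Rora and Npas2 were lower in HFD, at -0.07 and -0.12.

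Among output genes, Tspan4 had a log2 difference of 0.66 ± 0.18, Tsc22d3, which encodes the glucocorticoid-induced leucine zipper, 0.59 ± 0.19, and Nampt, of NAD salvage, 0.16 ± 0.15 (SE; limma, adjusted p = 0.114, 0.12 and 0.415). Their HFD libraries were all above their ND libraries as deposited, but after scaling Nampt was below in every HFD library, at -0.14. Among the kinases and ubiquitin ligase parts that act on PER and CRY proteins, Csnk1d had a log2 difference of 0.42, Csnk1e 0.52, Btrc 0.35 and Gsk3b 0.26, each with HFD above ND and no overlap (limma, adjusted p = 0.157, 0.13, 0.163 and 0.271). Fbxw11 had 0.20 with overlapping groups. After scaling Gsk3b and Fbxw11 were lower in HFD, at -0.05 and -0.13, and Csnk1d, Csnk1e and Btrc stayed higher, at 0.08, 0.22 and 0.04.

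Cues that can set or shift clock genes were measured through their target genes, and none of these lists held a gene called by limma. As deposited 93.8% of all genes tested were higher in HFD, and 41.5% had HFD above without overlap. After scaling these shares were 51.6% and 7.95%. The counts below as deposited are to be read against them. The glucocorticoid list had 5 of 5 tested genes higher in HFD, with a median log2 difference of 0.59, and 0.26 after scaling. Dusp1 was the only gene of that list besides Tsc22d3 without overlap, at 28.6 ± 6.37 FPKM in ND and 53.3 ± 15.4 in HFD (SD, n = 3; log2 difference 0.86, limma, adjusted p = 0.114). Fkbp5, a glucocorticoid target, was at 18.1 ± 11 and 19.5 ± 7.70 FPKM, and lower in HFD after scaling, at -0.14. Ddit4 had a log2 difference of 0.67 (limma, adjusted p = 0.127). All 8 immediate early genes were higher in HFD, with a median of 0.61, and 7 of 8 after scaling, with a median of 0.26. Fos had a log2 difference of 0.62, Junb 0.76, Nr4a1 0.78 and Ier2 0.68, all without overlap as deposited and all overlapping after scaling, and Egr1 had 0.49 with overlap. Of 8 temperature-responsive genes 7 were higher, with a median of 0.59, and 0.25 after scaling. The cold-induced Cirbp had 0.71 and the heat-shock genes Hspa1a and Hspa1b 0.93 and 0.91, without overlap, the last 2 also after scaling. The most abundant heat-shock genes, Hspa8 and Hsp90aa1, had 0.00 and 0.21, and -0.35 and -0.15 after scaling. The part of these cues in the clock gene values was not tested.

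Markers of several cell types differed in level between the groups, though limma called none of them. In bulk islets, fewer cells of a type and less RNA per cell cannot be told apart. All 9 beta cell markers, led by Ins2, Ins1 and Iapp, were detected in every library, with summed FPKM of 288141 to 431071 in ND and 450686 to 694438 in HFD. All 8 markers of the acinar cells that surround islets, led by Ctrb1, Cela2a and Prss2, were lower in HFD, with sums of 149437 to 203930 FPKM in ND and 64326 to 140998 in HFD. All 6 endothelial markers, led by Plvap, Kdr and Pecam1, were higher in every HFD library than in any ND library, with sums of 90.4, 140 and 120 FPKM in ND and 231, 230 and 176 in HFD. The 5 stromal markers, led by Col3a1, Col1a2 and Acta2, did the same, with sums of 16.8, 31.9 and 33.5 in ND and 52.8, 53.9 and 41.9 in HFD. As deposited 41.5% of all genes tested had HFD above without overlap. After scaling 4 of the 6 endothelial and 3 of the 5 stromal markers did, against 7.95% of all genes. The 5 immune markers, led by Lyz2, summed to 24.5, 50.6 and 34.4 in ND and 56.5, 96.7 and 43.5 in HFD, with overlap. No marker of these 5 lists was at 0 in all islet libraries. For the endothelial and immune sums, as for Dbp, ND replicate 2 was the highest ND library and HFD replicate 3 the lowest HFD library. The part of these cells in the clock gene values was not tested.

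The genes whose pattern over the 6 islet libraries was most like that of Dbp were looked up among 6427 tested genes averaging 5 FPKM or more, by Pearson's r of log2(FPKM + 1). Wdr45b led with 0.996, then Ramp2, a receptor subunit of adrenomedullin signalling, with 0.992, Col15a1, a basement membrane collagen, with 0.991, Sncg with 0.990 and Bop1, of ribosome assembly, with 0.990. After scaling Ramp2, Col15a1 and Sncg kept r of 0.954, 0.996 and 0.960, and Wdr45b and Bop1 dropped to -0.23 and -0.07. Col15a1 was at 2.99, 6.84 and 4.05 FPKM in ND and at 9.06, 11.2 and 6.71 in HFD, so it too had ND replicate 2 above HFD replicate 3. Least like Dbp were Aldh6a1, Phgdh, Cml1, Otud3 and Klf15, with r of -0.97, -0.94, -0.93, -0.90 and -0.88, and -0.87 to -0.84 after scaling for all but Klf15, at -0.90. Klf15, a Krüppel-like factor, was at 7.79, 7.29 and 9.68 FPKM in ND and 5.61, 5.19 and 6.32 in HFD. Of the 6427 genes, 390 had r of at least 0.9 with Dbp and 4 had -0.9 or less, and after scaling 105 and 79. Nr1d2 ranked 31 of 6427, Btrc 43, Tef 48 and Nr1d1 80. Other clock genes were less like Dbp: Per1 ranked 1457 and Clock 6174, and 397 and 5808 after scaling. The clock genes outside the members, apart from Btrc, ranked from 482 for Nampt to 4810 for Cry2. Arntl, Per2, Per3 and Cry1 averaged under 5 FPKM and were not compared. After scaling Nr1d1 ranked 31, Tef 41 and Nr1d2 45, and Btrc 1458. With 6 libraries that share a shift in level, such values are a description and carry no p.

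In embryos most of the clock was near the floor. The clock of early embryos is known to lack the strong rhythm of adult tissue. Of the 10 genes, 4 averaged 1 FPKM or more at the 8-cell stage, namely Clock, Cry1, Nr1d1 and Nr1d2, and 3 in the blastocyst, namely Arntl, Clock and Cry1. None of these reached a log2 difference of 1 between HFD and ND, which 2.67% of 8607 genes did upward and 5.3% downward at the 8-cell stage, and 1.96% and 4.25% of 9216 genes in the blastocyst. After scaling none did either, against 4.11% and 2.51% of genes at the 8-cell stage and 2.8% and 2.95% in the blastocyst. With 1 pool per group these differences have no replicate check.

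Cry1 was the leading member in embryos, at 6.66 FPKM in ND and 8.29 in HFD at the 8-cell stage and at 8.90 and 13.1 in the blastocyst. It was higher in HFD at both stages, by 0.28 and 0.51 on the log2 scale, where islets had it lower. Nr1d2 was at 7.43 and 6.44 FPKM at the 8-cell stage and at 0.309 and 1.08 in the blastocyst, and Nr1d1 at 1.25 and 1.72 and then at 0.283 and 0.232. Arntl was at 0.660 and 0.569 FPKM at the 8-cell stage and at 2.57 and 2.13 in the blastocyst. Clock was at 1.57 and 1.29 and then at 0.920 and 1.21, and in the embryo tables its listed span also overlaps Nmu, Pdcl2 and Tmem165. Tef was at 0.197 and 0.448 FPKM at the 8-cell stage and at 1.04 and 0.730 in the blastocyst. Per1 was at 0.397 and 0.101 and then 0.378 and 0.698, and Per3 at 0.764 and 0.0385 and then 0.149 and 0.379. Per2 was at 0.272 and 0.311 FPKM at the 8-cell stage and listed at 0 in ND and 0.0434 in HFD in the blastocyst. Dbp, which led the islet differences, was listed at 0 in the 8-cell ND and the blastocyst HFD pools and at 0.293 and 0.245 in the others, so its level in embryos lay at or near the floor. The difference between the arms was -0.80 in ND and -0.85 in HFD at the 8-cell stage and -1.63 and -1.71 in the blastocyst, against -0.28 to 1.89 in islets.

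**Figure D5:**
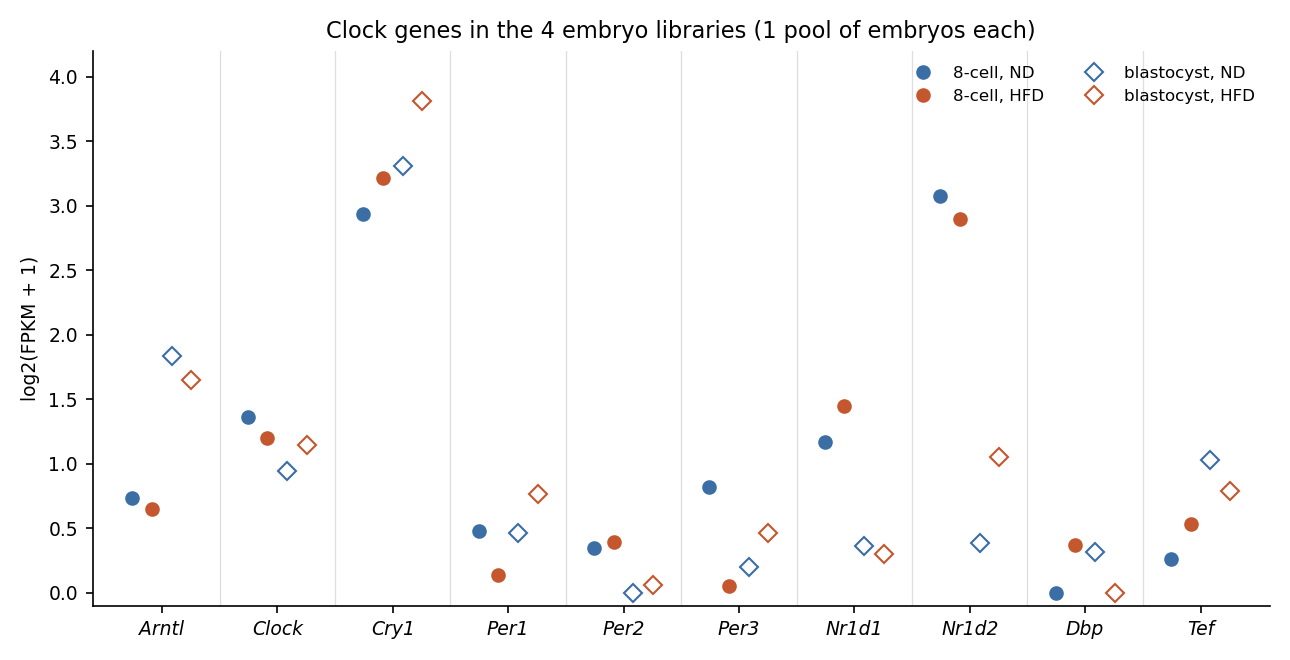
Log2(FPKM + 1) of each clock gene in the 4 embryo pools, circles for 8-cell and diamonds for blastocyst, blue for ND and orange for HFD; each point is 1 pool and there are no error bars. Nr1d1 and Nr1d2 are higher in both 8-cell pools than in both blastocyst pools, Arntl is lower, and the HFD and ND points of a stage lie close together for most genes.

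More genes were called between stages than between sperm RNAs. In an additive model of stage and sperm RNA over the 4 pools, 5 members could be tested, and limma called 3 of them for stage, 1 upward and 2 downward, where it called 31.9% of 9603 genes upward and 16.1% downward. The same 3 were called after scaling, against 24.8% and 23.6% of all genes. Nr1d2 fell by 2.26 ± 0.32 from the 8-cell stage to the blastocyst on the log2 scale (SE; limma, adjusted p = 0.00315) and Nr1d1 fell by 0.98 ± 0.24 (limma, adjusted p = 0.0171). Arntl rose by 1.05 ± 0.25 (SE; limma, adjusted p = 0.0157), a call that ended with no filter on low values (limma, adjusted p = 0.0641). Cry1 at 0.48 and Clock at -0.24 did not pass (limma, adjusted p = 0.171 and 0.469). The model has 1 residual degree of freedom, so its spread is the disagreement of the stages, shared across genes. The sperm RNA term called no gene of 9603 (limma; 0.0% at the adjusted threshold, 1165 genes or 12.1% at an unadjusted p of 0.05, and 9.46% after scaling), and its estimates were -0.14 for Arntl, 0.02 for Clock, 0.39 for Cry1, 0.11 for Nr1d1 and 0.24 for Nr1d2 (limma, adjusted p = 0.557 to 0.982).

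Of the 24 other clock genes, 15 could be tested for stage in embryos, and limma called 3 upward and 3 downward. Of all 9603 genes it called 31.9% upward and 16.1% downward, so the list did not stand out from all genes. Ciart, a repressor of the ARNTL and CLOCK pair, fell by 1.49 ± 0.27, Tspan4 fell by 2.70 ± 0.25 and Csnk1e fell by 1.19 ± 0.24 (SE; limma, adjusted p = 0.00662, 0.00114 and 0.00936). Bhlhe41, an E-box repressor, rose by 1.04 ± 0.25, Btrc by 1.19 ± 0.24 and Gsk3b by 1.04 ± 0.25 (SE; limma, adjusted p = 0.0168, 0.00992 and 0.0163). After scaling Gsk3b no longer passed (limma, adjusted p = 0.0585), and with no filter on low values Bhlhe41 did not (limma, adjusted p = 0.0643). Between HFD and ND, 1 of these genes passed a log2 difference of 1 at a stage: Nfil3, at 4.84 FPKM in ND and 1.45 in HFD at the 8-cell stage, with 1.02 and 1.32 in the blastocyst. No gene of the clock or cue lists did so at both stages in the same direction. The markers went with the labels of stage. Trophectoderm markers, led by Krt18 and Krt8, summed to 40.4 FPKM in ND and 28.5 in HFD at the 8-cell stage, and to 2653 and 2937 in the blastocyst. Oocyte markers summed to 24.6 in ND and 25.4 in HFD and then to 3.48 and 2.49.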

How the data were processed

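Expression of 10 clock genes was read from 10 RNA-seq libraries: 6 of islets (TruSeq stranded mRNA) and 4 of embryos (Smart-Seq2). What the authors deposited are FPKM values of genes, a unit the file headers give. The submitters' processing notes name TopHat2 2.0.8b, Cufflinks and build mm10. Read totals and the hour of collection are not given in the sources used here. Steps between low islet FPKM values gave relative depths of 0.946 to 1, but only 17.6% to 20.9% of low genes lay at that ratio, so depth is taken as unknown and FPKM carry no counting interval.

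The 11737 islet genes reaching 1 FPKM in 3 of 6 libraries entered a limma 3.58.1 fit of log2(FPKM + 1) under R 4.3.3 (trend, two-sided, Benjamini-Hochberg, threshold 0.05, 4 residual degrees of freedom), a fold change on this scale understating that of low genes. Embryo tables were joined by symbol, and 10 genes with a failed status were left out. The 9603 embryo genes reaching 1 FPKM in 2 of 4 pools were fitted by stage and sperm RNA. At a single stage there is no test, and a log2 difference of 1 was counted among genes averaging 1 FPKM or more. Median ratio scaling divided each library by its median ratio to the geometric mean over libraries. Correlations used exact permutation in scipy 1.17.1. The script was tested on simulated data. Motifs were searched in RefSeq promoter windows (GRCm38.p6).

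Members, arms and gene lists were chosen with earlier results of these data known. Named were the 10 genes in every library; of the clock and cue lists, genes called, genes whose islet groups did not overlap and the 3 with the highest mean islet FPKM, and in embryos those past the fold at both stages; up to 3 marker genes per cell type; and the 5 genes most and least like Dbp. Tests of stage in embryos also name the genes they called, and Sphk2 and Nfil3 in embryos were added after their values were seen. Alternatives were other pseudocounts, filters, scalings, a replicate block and leaving out each islet library. The replicate block with scaling, and scaling with a library left out, were added after the data were seen. A few genes that the rule would name are not reported here. Sperm small RNA libraries were not used here.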

Additional observations from a re-analysis of the deposited data

Results flagged for a closer look

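The 3 members below had differences of opposite sign in different material. None of these differences between materials was tested, and each embryo value is 1 pool against 1 pool. Among genes averaging 1 FPKM or more, the median log2 difference, HFD minus ND, was -0.22 at the 8-cell stage, with 32.8% above 0. In the blastocyst it was -0.09, with 42.4% above 0. The negative 8-cell values of Nr1d2 and Clock below thus have the sign of most genes and lie above that median.

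Cry1 was lower in every HFD islet library than in any ND islet library, at -0.29 on the log2 scale, and higher in the HFD pool at both embryo stages, at 0.28 in 8-cell embryos and 0.51 in blastocysts. After scaling the values were -0.52, 0.50 and 0.61.

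Nr1d2 was higher in every HFD islet library, at 0.85, and lower in the HFD pool of 8-cell embryos, at -0.18. After scaling the 8-cell value was 0.05, so its sign depends on the scaling. In the blastocyst, where Nr1d2 was near the floor, the difference was 0.67 as deposited and 0.71 after scaling.

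Clock was lower in the HFD pool at the 8-cell stage, at -0.17, and higher in the blastocyst, at 0.20. After scaling these were -0.02 and 0.26. In the embryo tables its listed span takes in other genes.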

How the results depend on the processing

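Across 19 fits of the islet data, the signs of all members but Clock held. Clock, near 0, turned positive without HFD replicate 1 or 2 or ND replicate 1 or 2, and ranged from -0.056 to 0.027 over the 6 fits that left out 1 library. The log2 difference of Nr1d1 ranged from 0.97 to 1.81 (adjusted p 4.02e-08 to 0.812, limma), that of Dbp from 1.07 to 2.43 (3.15e-13 to 0.853) and that of Arntl from -0.93 to -0.08. For Nr1d1 and Dbp the lowest adjusted p came from the replicate block as deposited, whose pairing is not accepted below. Outside that fit the lowest were 0.00317 for Nr1d1 and 0.0259 for Dbp (limma, without ND replicate 3).

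The number of islet genes called, 5 higher and 1 lower in HFD, moved with nearly every setting. It was 2 and 0 with median ratio scaling, 0 and 0 with no filter or with quantile normalization, 8 and 2 without the trend, and 3 and 0 with a pseudocount of 0.1 FPKM. Leaving out 1 library gave 0 to 329 higher and 0 to 18 lower as deposited, and 0 to 4 of each after scaling. Leaving out ND replicate 3 gave 329 and 18.

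Same-numbered ND and HFD libraries did not deviate together (correlations of -0.03, 0.04 and 0.03), so the numbers are not taken as pairs. Among the members, though, Per2, Per3, Nr1d1, Nr1d2, Dbp and Tef were highest, and Arntl lowest, in replicate 2 of both groups. A replicate block gave 537 higher and 53 lower, with 6 of the 10 members called (Dbp, Nr1d1, Tef, Nr1d2, Per1 and Per3); with the block and scaling together the counts were 0 and 0. Not every library correlated best with its own number.

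Of the other genes named, 8 changed sign with scaling or quantile normalization: Npas2 (-0.12 and -0.18), Rora (-0.073 and -0.068), Nampt (-0.14 and -0.13), Fbxw11 (-0.13 and -0.15), Gsk3b (-0.050 and -0.055), Fkbp5 (-0.14 and -0.16), Hsp90aa1 (-0.15 and -0.18) and Hspa8 (-0.35 and -0.32). Leaving out a library turned Npas2 (-0.18 to 0.22 over these fits), Hspa8 (-0.17 to 0.17), Fkbp5 (-0.18 to 0.63) and Nfil3 (-0.51 to 0.13). The correlation of Arntl with Clock turned to 0.74 and that with Cry1 to 0.45 after scaling.

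In embryos, 686 genes passed the fold at the 8-cell stage and 573 in the blastocyst. These became 1198 and 1087 with a pseudocount of 0.1 FPKM, and 255 and 256 with a mean of at least 10 FPKM, which tests fewer genes. Elsewhere the cause was not tested. Read totals are not given in the sources used here, so what depth limits cannot be stated; 6 of the 10 members averaged under 1 FPKM at the 8-cell stage and 7 in the blastocyst.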
